A study of Mus musculus with 8 samples.

Results

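Neat1 and Malat1 are neighbouring long noncoding RNA genes on mouse chromosome 19, and the locus was taken as the window from 5780000 to 5870000 in build mm9. All peaks of the 6 deposited lists whose midpoint lay in this 90 kb window were members, which gave 31 of the 88367 peaks in all lists. The locus was selected on a measured value, the width of its widest KDM4B peak in WT cells, so the KDM4B widths, covered lengths and ranks given here describe that choice and are not tested. The members were 15 of 32017 KDM4B peaks of WT cells and 16 of 55306 H3K9me3 peaks of KO cells. The other 4 lists, KDM4B in KO, H3K9me3 in WT and total H3 in KO and in WT, had 0 peaks in the window. These lists are short, with 35, 943, 28 and 38 peaks in all, so an empty window is what most of the genome shows in them.

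Chromatin immunoprecipitation sequencing (ChIP-seq) was carried out on primary bone marrow mesenchymal stem cells, which can give rise to osteoblasts, chondrocytes and adipocytes, after 4 hours of osteogenic induction. KO cells came from Prx1Cre; Kdm4bf/f mice and WT cells from Prx1Cre; Kdm4bw/w mice, so both genotypes carried the Cre transgene and differed in the Kdm4b alleles. Prx1Cre is active in limb bud mesenchyme and its descendants, and whether animals were pooled is not stated. There was 1 library per antibody and genotype, so no difference between genotypes has a replicate check, and intervals cover counting error only. The 2 input samples were not analysed here as peak lists. The H3 WT library had 40420466 tags after duplicate filtering and its control 45099322, and depth is not known for the remaining 5 lists. A called peak does not give the share of cells that carry it. No RNA was measured in these files, so the labelled cell type was not checked against marker expression.

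KDM4B is a histone demethylase that acts on methylated lysine 9 of histone H3, while trimethylation of that lysine, H3K9me3, is a mark of repressed chromatin. Neat1 RNA is the scaffold of paraspeckles, nuclear bodies that form around its nascent transcripts and hold RNA-binding proteins. It is made as a short and a long isoform from the same promoter, and only the long one builds the body. Malat1 RNA is kept in the nucleus and accumulates in nuclear speckles, which are rich in splicing factors. Its 3′ end is cut to release a small tRNA-like RNA called mascRNA.

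Both genes were found in RefSeq's gene table for build GRCm38.p6, which was used for names, order and lengths only. Along the chromosome the order there was Malat1, Neat1, Frmd8 and Slc25a45. Frmd8 encodes a binding partner of iRhom proteins in the ADAM17 sheddase complex. Malat1 (gene ID 72289) was listed with a length of 6.98 kb and 1 transcript, and Neat1 (gene ID 66961) with a length of 20.8 kb and 2 transcripts. Mascrna had an entry of its own, of 58 bp. Because no gene positions of build mm9 were used here, the peaks could be set against the genes by order and size but not against their start and end.

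The RefSeq promoter table held Malat1, and this sequence is shown because it is the start of a member gene of the locus. It spans 250 bases before to 50 after the transcript start on the minus strand, at chr19:5802623-5802922 of build GRCm38.p6, a position that was not compared with the mm9 peaks. Capitals mark matches to TGACGT, a core motif of CREB and ATF factors,, on either strand.
Malat1 promoter: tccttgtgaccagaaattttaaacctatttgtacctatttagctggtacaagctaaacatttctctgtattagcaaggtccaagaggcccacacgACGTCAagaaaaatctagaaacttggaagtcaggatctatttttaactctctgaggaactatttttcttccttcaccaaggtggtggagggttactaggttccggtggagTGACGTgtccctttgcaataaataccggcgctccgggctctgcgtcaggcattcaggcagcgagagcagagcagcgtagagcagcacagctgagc
The matches begin 155 and 45 bases before the transcript start, the first of them on the reverse strand. Among 32851 promoter sequences of the same length, 2.17% held at least 2 matches and 7.51% at least 1, where a full palindromic site counts as a pair of overlapping matches. The motif was chosen after its values were seen, so these shares are descriptions and do not test rarity. The sequence had 10 CG dinucleotides, against a median of 7 over all promoters, and 43.5% of promoters had as many or more. Its GC content was 47.0%, below the median of 52.7%, and 28.4% of promoters had a lower one. A match of letters does not show that a factor binds there.

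The KDM4B peaks of WT cells in the locus lay mainly in a largely covered stretch, made of 2 wide peaks and many narrower ones. The widest, from 5821359 to 5850620, spanned 29.3 kb, which is 57.5 times the median width of 509 bp in the list. At its lower-coordinate side lay a peak from 5793708 to 5804996 of 11.3 kb, the 20th widest of the 32017. The narrower of these wide peaks thus comes first along the chromosome, as the shorter gene does in the gene table. In size, the 29.3 kb peak was 1.41 times the listed length of Neat1 and the 11.3 kb peak was 1.62 times that of Malat1. Order and size alone do not place either peak on a gene, and this was not tested. Together the 2 peaks held 76.4% of the KDM4B-covered sequence of the locus, and the widest alone held 55.1%.

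**Figure D1:**
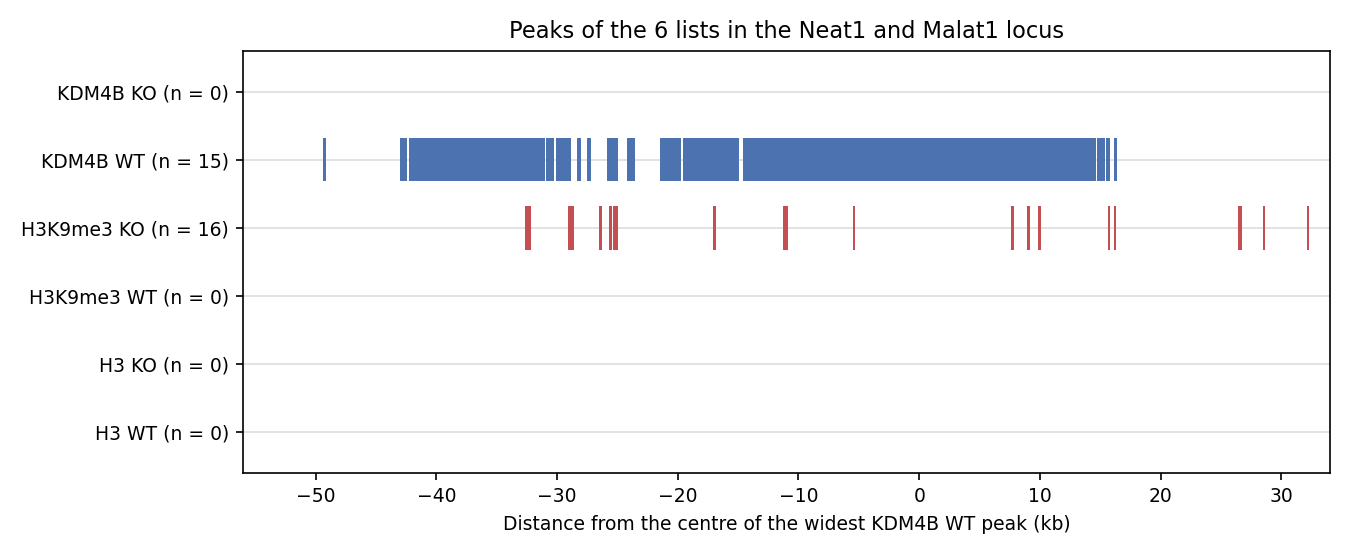
Peaks of the 6 lists in the window, drawn to scale against distance in kb from the centre of the widest KDM4B peak; each bar is 1 peak, red in KO and blue in WT lists. KDM4B WT covers most of the middle of the window, the 16 H3K9me3 KO peaks are narrow and scattered, and 4 lists are empty.

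The 16.4 kb between the wide peaks was itself filled for 64% of its length by 8 KDM4B peaks that covered 10.5 kb. Closest to the widest peak lay one of 4.66 kb, from 5816440 to 5821103, with a gap of 255 bp between them. Before it came a peak of 1.77 kb from 5814508 to 5816274. Next to the 11.3 kb peak lay a narrow one of 627 bp, from 5805094 to 5805720, and one of 1.27 kb, from 5805889 to 5807156. The remaining 4 peaks of this interval were between 275 and 902 bp wide. Gaps in it were largest, at 2.06 kb, between 5812450 and 5814508. Between the wide peaks KDM4B was thus called in pieces, with gaps from 97 bp to 2.06 kb. Joining peaks within 1 kb left the 2 wide peaks in separate regions.

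On the higher-coordinate side, where Frmd8 follows Neat1 in the gene table, KDM4B peaks ended soon after the widest one. Peaks of 635, 320 and 237 bp followed within 1.74 kb of its end, and the last of them ended at 5852362. The next KDM4B peak lay outside the window, from 5877553 to 5878456, and was 904 bp wide. On the lower side the stretch began with a peak of 607 bp from 5792961 to 5793567. A single peak of 256 bp stood apart there, from 5786592 to 5786847, 6.11 kb before the stretch. The first one below the window was 574 bp wide, from 5771024 to 5771597.

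From 5792961 to 5852362 the stretch was 59.4 kb long and held 14 peaks, which covered 52.8 kb or 88.9% of it. Of its 13 gaps, 7 were under 300 bp, the narrowest 93 bp and the median 255 bp. In the whole KDM4B list 18.8% of gaps between neighbours were under 300 bp and the median gap was 5.72 kb. The borders of the stretch were set after its peaks were seen and leave out the wider gaps on each side. Its short gaps therefore describe that choice, and the contrast with the whole list was not tested. Of the 15 members, 5 were 1 kb wide or more, against 19.9% of all KDM4B peaks of WT cells. Joining peaks within 1 kb gave 4 regions in the window, the longest of 37.9 kb from 5814508 to 5852362. That region ranked 5th of 21695 such regions, and the longest, on chromosome 10 from 126972094 to 127016730, reached 44.6 kb. The first place by width therefore holds for peaks as called and not for joined ones.

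KDM4B covered 53.1 kb of the window, or 59.0%, against 0.941% of all placed chromosomes, a ratio of 62.7. Peak number stood out less, at 167 peaks per Mb against 12.5 per Mb, a ratio of 13.4. Among 28552 windows of 90 kb the locus ranked 2nd by covered length and 203rd by number of KDM4B peaks. First by covered length was a window on chromosome 10 from 127010001 to 127100000, with 55.4 kb from 27 peaks. It was followed by the locus and then by a window on chromosome 11 from 75350001 to 75440000, with 50.5 kb from 33 peaks. The locus reached its covered length with 15 peaks, fewer than in either of these. Of the 29 KDM4B peaks of 10 kb or more in the genome, the locus held 2. Only 1 other pair of such peaks lay within 90 kb of each other, on chromosome 5, with 73.7 kb between them.

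H3K9me3 was called in KO cells alone. The window held 16 peaks in KO and 0 in WT, and the KO peaks covered 4.53 kb, or 5.03% of it. On chromosome 19 as a whole there were 1869 peaks in KO and 16 in WT, and the nearest WT peak lay 17.6 Mb from the window. A window with 0 WT peaks was the rule: 98.5% of all windows had none, as did 97.4% of the 755 windows with 16 or more KO peaks. KDM4B in KO and H3 in either genotype had no peak on chromosome 19. Differences in depth or calling threshold between the KO and WT libraries, which are unknown here, cannot be told apart from genotype.

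All 16 KO peaks were narrow, between 199 and 488 bp, with a median width of 262 bp against 256 bp over all placed chromosomes. Of them 3 had a width of 199 bp, the smallest in the list, a width that 20.8% of all KO peaks had. None reached 1 kb, as only 0.530% of KO peaks on all placed chromosomes did. In width the KO peaks of the locus were thus like the list as a whole.

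Inside the widest KDM4B peak lay 5 H3K9me3 peaks of KO cells, and they were placed unevenly. From the lower-coordinate edge the first, from 5824706 to 5825087, began 3.35 kb in and was 382 bp wide. The second, from 5830466 to 5830691, began 9.11 kb in and was 226 bp wide. No H3K9me3 peak was called in the 12.9 kb after it. The other 3 lay within 2.49 kb of each other towards the higher-coordinate end. They ran from 5843603 to 5843868, from 5844935 to 5845201 and from 5845838 to 5846095, and ended 6.75, 5.42 and 4.53 kb before the edge of the KDM4B peak. All 5 together covered 1399 bp, or 4.78% of the domain.

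The remaining H3K9me3 peaks fell on other KDM4B peaks or, for 4 of them, on none. The 11.3 kb peak held 1, from 5803353 to 5803792, which was 440 bp wide and lay close to its higher-coordinate end. The widest of the 16, with 488 bp, ran from 5806905 to 5807392 and shared 252 bp with the 1.27 kb KDM4B peak. A pair, from 5810312 to 5810516 and from 5810609 to 5811004, lay within the KDM4B peak of 902 bp. The 4.66 kb KDM4B peak held 1, from 5818897 to 5819192. At the far end, 1 of 205 bp from 5851602 to 5851806 shared 163 bp with a KDM4B peak, and 1 from 5852129 to 5852327 lay wholly inside the last KDM4B peak of 237 bp. Between KDM4B peaks of the stretch there was only 1, from 5809486 to 5809684. Beyond the stretch another 3 lay on the Frmd8 side, from 5862391 to 5862690, from 5864479 to 5864677 and from 5868110 to 5868309. The first KO peak past the window was 249 bp wide, from 5871053 to 5871301. In the 13.0 kb below the stretch there was 0.

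Counted over the locus, 12 of the 16 H3K9me3 peaks of KO cells overlapped KDM4B by at least 1 bp, or 75% (95% exact binomial interval 47.6 to 92.7%), where 15.7% of all KO peaks did. KDM4B covered 59.0% of this window, so the locus gives such overlap far more room than the genome does. That covered length is part of what chose the locus, and 5 of the 12 peaks lay in the widest KDM4B peak. The interval takes peaks as independent, which neighbouring peaks are not, and the contrast was not tested. Seen from KDM4B, 7 of 15 peaks overlapped H3K9me3 of KO cells, or 46.7% (21.3 to 73.4%), against 22.8% of all KDM4B peaks. That interval holds the share of the whole list, but the widest peak, which chose the locus, is among the 7. The share also depends on how peaks are cut, as joining them within 1 kb gave 3 of 4 regions. This contrast was not tested either. Wide KDM4B peaks overlap more often everywhere: 77.0% of the 191 peaks of 5 kb or more did, against 17.7% of those under 1 kb. In the locus both peaks of 5 kb or more did, and so did 3 of the 10 under 1 kb.

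Per length, H3K9me3 on KDM4B-covered sequence was not above its general level in the locus. There were 2.26 overlapping KO peaks per 10 kb of KDM4B-covered sequence in the locus (95% Poisson interval 1.17 to 3.95). Over all placed chromosomes the value was 3.60, inside that interval. The KDM4B-covered length in the divisor is part of what chose the locus. Peak width matters here too: overlaps per kb were 0.404 for all KDM4B peaks under 1 kb and 0.289 for those of 5 kb or more. In the locus 2 wide peaks held 76.4% of the KDM4B-covered sequence. In the 36.9 kb of the window without KDM4B there were 1.08 KO peaks per 10 kb (0.295 to 2.77), against 0.183 in all sequence without KDM4B. The locus value rests on 4 peaks, and the neighbourhood was alike: in the 5 windows of 90 kb on each side it was between 0.786 and 2.82, with a median of 1.12, and 5 of these 10 windows had a higher value than the locus. In bp, H3K9me3 of KO cells took up 63.1 bp per kb of KDM4B-covered sequence and 31.9 bp per kb of the rest of the window. Over all placed chromosomes these values were 104 and 5.73 bp per kb.

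Values per kb of KDM4B peak are descriptions, because the width they divide by chose the locus. The widest peak had 0.171 KO peaks per kb (95% Poisson interval 0.0555 to 0.399), and the 191 KDM4B peaks of 5 kb or more had a median of 0.255, from 0 to 1.32. Of these 191, 119 had a higher value and 71 a lower one. The interval holds the median. The 11.3 kb peak had 0.0886 per kb (0.00224 to 0.494), also with the median inside its interval.

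**Figure D2:**
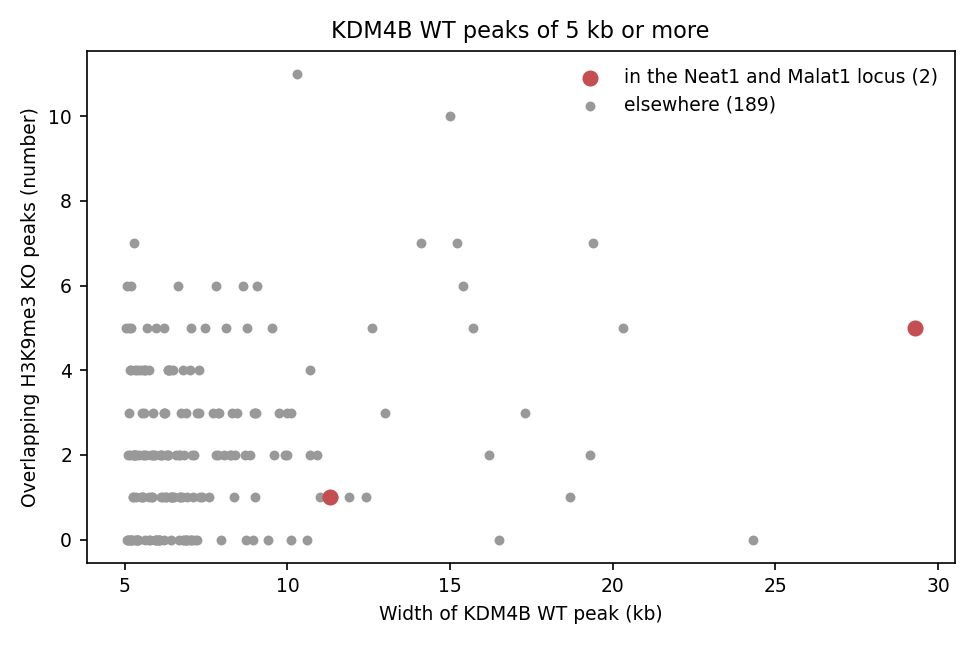
Width of each KDM4B WT peak of 5 kb or more, in kb, against the number of H3K9me3 KO peaks that overlap it; red points are the 2 peaks of the locus and grey points the others. The 29.3 kb peak is the farthest to the right with 5 overlaps, a number that many narrower peaks reach.

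The next widest KDM4B peaks differed widely in the same measure. The peak of 24.3 kb on chromosome 14, from 63741118 to 63765427, had 0 KO peaks. On chromosome 10 the peak from 59740042 to 59760358 had 0.246 per kb, and that from 127023898 to 127043323 had 0.360. The peak on chromosome 13 from 24891497 to 24910769 had 0.104 per kb, and that on chromosome 6 from 48985523 to 49004260 had 0.0534. The value of 0.171 for the locus lay in the middle of these. Among all 191, 44 had no KO peak.

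The neighbouring sequence was set beside the locus in the same way. Over the 5 windows of 90 kb on each side, KDM4B covered between 0.942 and 29.3 kb, with a median of 8.12 kb, against 53.1 kb in the locus. H3K9me3 peaks of KO cells numbered between 9 and 35 in these 10 windows, with a median of 15, against 16 in the locus. The window just below, which ends at 5780000, had 29.3 kb of KDM4B and 35 KO peaks, and the one just above had 1.27 kb and 15. The widest peak, which chose the locus, makes up 55.1% of its KDM4B-covered length. The excess over the neighbours was therefore not tested, and nothing is read from it. In H3K9me3 peak number the locus lay among its neighbours. That number is not the width that chose the locus, but earlier results of these data were known when it was chosen.

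**Figure D3:**
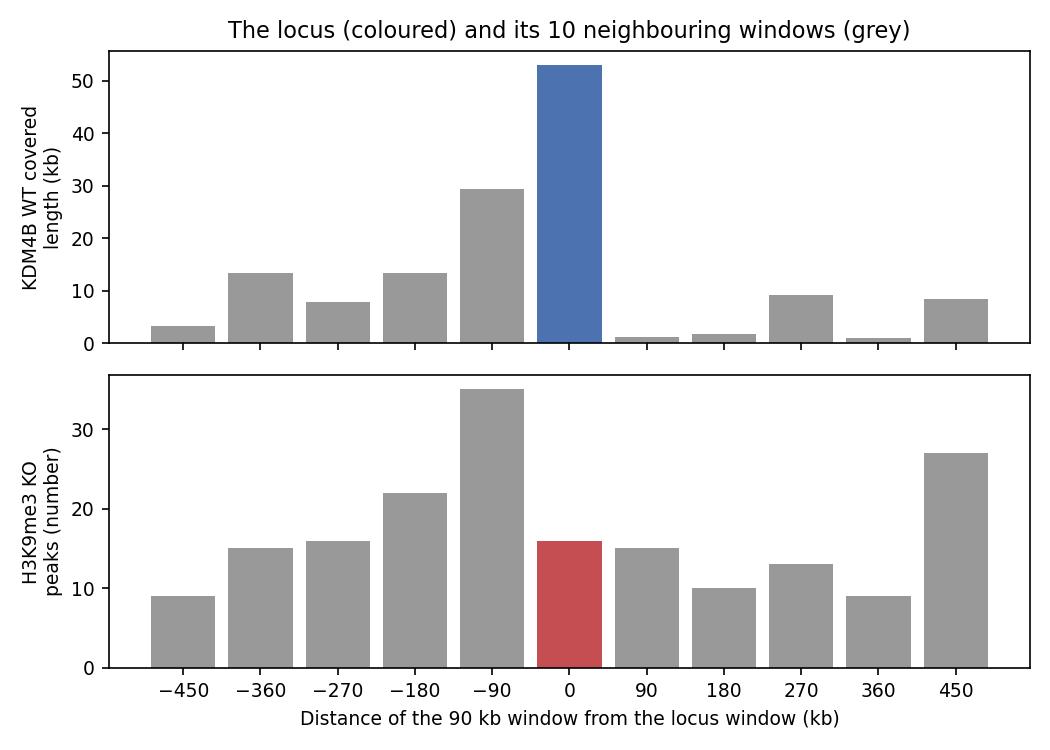
KDM4B WT covered length in kb (upper bars) and number of H3K9me3 KO peaks (lower bars) in the locus, coloured, and in 5 windows of 90 kb on each side, grey. The locus has the highest upper bar, 53.1 kb, while its 16 KO peaks lie within the neighbours' range of 9 to 35.

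Against the whole genome, 16 KO peaks were many: 2.64% of all windows of 90 kb had as many or more, and the locus ranked 651st of 28552. In density this was 178 KO peaks per Mb in the locus, 8.25 times that of all placed chromosomes (95% Poisson interval 4.72 to 13.4) and 5.53 times that of chromosome 19 (3.16 to 8.99). KO peaks were unevenly spread, with a median of 0 and a maximum of 55 per window. The intervals cover counting error alone and leave that unevenness out, so these contrasts were not tested. Windows rich in KDM4B were often rich in H3K9me3 as well, but over a wide range. The other 83 windows with 20 kb or more of KDM4B had between 0 and 55 KO peaks, with a median of 9. Of these, 25 had more KO peaks than the locus, 5 had as many and 53 had fewer. Dividing all KO peaks of a window, on KDM4B or not, by its KDM4B-covered length gave 0.301 per kb in the locus and a median of 0.307 in these windows. By this ratio the locus was near the middle of them. The KDM4B-covered length in the divisor is part of what chose the locus and picked these windows, so the ratio is a description.

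**Figure D4:**
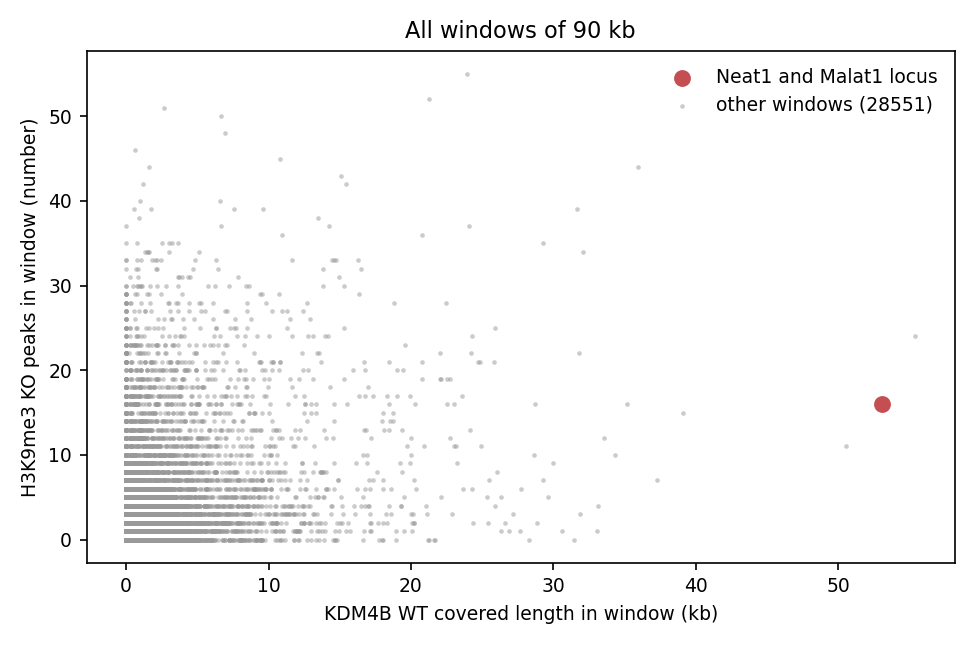
KDM4B WT covered length in kb against the number of H3K9me3 KO peaks for all 28552 windows of 90 kb, with the locus in red and each other window a grey point. The locus lies at 53.1 kb and 16 peaks, 2nd along the horizontal axis and 651st along the vertical one.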

How the data were processed

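The submitters' processing notes name Bowtie and SAMtools for all samples, MACS for KDM4B and MACS2 for the rest, and builds mm9 and hg19; the study also has human cells, per the labels' protocols. Chromatin had been sheared to 200 to 500 bp, per the labels' protocols. The authors deposited 6 peak lists, of which 5 give positions alone. The H3 WT table, written by MACS2 2.1.4 per the file headers, also gives a deposited pileup signal, fold enrichment ratio, −log10 p-value and −log10 q-value for each peak, none used here because it has no peak in the window. How the yeast spike-in of the H3K9me3 samples was used is not stated.

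Starts counted from 0 were moved to 1-based positions. Overlap meant at least 1 shared bp, computed with numpy 2.4.6 and scipy 1.17.1 under Python 3.11.15, tested on simulated data and checked against bedtools 2.31.1. Shares carry exact binomial (Clopper-Pearson) and densities exact Poisson 95% intervals, and neighbouring peaks are not independent. Windows of 90 kb were tiled in phase with the locus over each chromosome from its first to its last called peak, with each peak assigned by its midpoint. Named peaks were to be those of 1 kb or more, the nearest to the widest, all of a list with 20 or fewer, and the 5 next widest; the remaining peaks, the 2 windows named beside the locus, the merged regions and the promoter motif were chosen after their values were seen. The members and lists were chosen with earlier results of these data known. Gene lists that needed mm9 gene positions were not used here. The alternatives were membership by overlap, a wider window, merging within 1 kb, other overlap rules, a shifted tiling, autosomes only and a lower width limit.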

Additional observations from a re-analysis of the deposited data

How the results depend on the processing

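Of 31 alternative values, 24 stayed close to the reported ones and 7 did not. Close meant within 1.5 times for counts and ranks, or within the counting interval for other values where there was one. No counting interval is given for covered lengths, and each of them that changed at all is among the 7. Merging peaks within 1 kb lowered the KDM4B peaks in the locus from 15 to 4 and those that overlap H3K9me3 of KO cells from 7 to 3, and raised the covered length to 56262 bp for KDM4B and 6203 bp for H3K9me3 in KO. This follows from joining peaks across the short gaps of the stretch. Widening the window by 10 kb on each side gave 54558 bp for KDM4B, as against 53080 bp, and 5804 bp for H3K9me3 in KO, as against 4526 bp, since it adds peaks. Counting peaks within 1 kb as overlapping raised the KDM4B peaks with H3K9me3 in KO to 11. The number of KO H3K9me3 peaks counted for the widest KDM4B peak was 5 or 6 under every setting run. Both values of 6 reach beyond that peak as called. With merging, H3K9me3 peaks were joined too and counted over the joined region of 37.9 kb, which holds 8 KO peaks before joining. Counting peaks within 1 kb adds the one from 5851602 to 5851806, which lies outside the KDM4B peak. By KDM4B-covered length the locus ranked 2nd or 3rd. Coverage of the gene bodies was not run, because gene positions of build mm9 were not used here. No paired analysis was possible because each group has 1 library. Unknown depth in 5 lists and the missing peak heights limit what the positions can show.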
